A study of Homo sapiens with 54 samples.

Results

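The class II cytokine receptors for interleukin 10 (IL-10) and the interferons were followed across 18 groups of HCT116 and HepG2 cells. The members were the 10 table entries named IL10RA, IL10RB, IL22RA1, IL20RA, IL20RB, IFNLR1, IFNAR1, IFNAR2, IFNGR1 and IFNGR2, out of 50037 entries in all. They were chosen by gene symbol, and the entry joining IFNAR2 and IL10RB by name, IFNAR2-IL10RB, was read beside them. All 10 symbols had an entry, and 6 of them reached the expression level at which a test was run. The question put to the data was whether transcripts of both IL-10 receptor chains were present in cells given IL-10.

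HCT116, a human colon cancer line, and HepG2, a human liver cancer line whose labels call it a liver cancer stem cell, were each sampled as 9 groups of 3 libraries, 54 libraries in all. The treatments were IL-6 (50 ng/mL), IL-10 at that same concentration, TNF-α (100 ng/mL) and 1 µM of Torin1, which inhibits the mTOR kinase, each for 3 h or 6 h. Control cells (NC) were given an equal volume of complete medium, and their labels state no time. Poly(A) RNA was sequenced, and levels are given as FPKM, fragments scaled by transcript length and by sequencing depth, which can be compared between genes because of the length scaling. Each line is a single established culture with no genetic change named in the labels.

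Class II cytokine receptors are pairs of single-pass membrane proteins that carry no enzyme of their own and signal through bound JAK kinases and STAT factors. IL-10 binds IL10RA with high affinity and then needs IL10RB to signal, chiefly through JAK1, TYK2 and STAT3. IL10RB is shared with the IL-22 receptor, where it joins IL22RA1, and with the type III interferon receptor, where it joins IFNLR1. IL20RA and IL20RB form a receptor for IL-19, IL-20 and IL-24, and IL20RB also pairs with IL22RA1. Type I interferons bind IFNAR1 with IFNAR2, and interferon γ binds IFNGR1 with IFNGR2. IL10RA is best known from leukocytes, while IL22RA1 and IFNLR1 are known from epithelial cells and hepatocytes.

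The reads recovered from the FPKM values came to 38.5 to 55.7 M per HCT116 library and 46.3 to 93.7 M per HepG2 library. In HepG2, 7 of 8 hepatocyte markers had a median of at least 1 FPKM, with summed levels of 12065.9 to 14639.5 FPKM, against 1 of 8 in HCT116. HCT116 had 5 of 10 colon epithelium markers at that level, EPCAM, CDH1, KRT8, KRT18 and the intestinal factor CDX2 (median 2.16 FPKM), while KRT20, CDX1, VIL1, CDH17 and LGALS4 had medians under 0.1 FPKM. HepG2 had 4 of the 10, EPCAM, KRT8, KRT18 and VIL1 (median 44.6 FPKM), with CDX2 near 0. Of 12 leukocyte markers, 0 had a median of 1 FPKM in HCT116 (summed 0.867 to 1.60 FPKM) and 1 did in HepG2 (2.19 to 4.85 FPKM), with PTPRC and CD3E under 0.1 FPKM in both lines. In bulk RNA, fewer cells that express a gene and less RNA per cell cannot be told apart. Differences are log2(FPKM + 1), treated minus control, which understates changes of weakly expressed genes. A gene was called at a limma adjusted p under 0.05, with the adjustment over all genes tested.

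The 10 genes lie in a few chromosomal clusters (RefSeq, GRCh38.p14). Chromosome 21 carries IFNAR2 (33229938 to 33265664), IL10RB (33266367 to 33310182), IFNAR1 (33324395 to 33359864) and IFNGR2 (33402882 to 33437516), in that order. Chromosome 6 carries IL20RA (136999971 to 137044965) and IFNGR1 (137197484 to 137219385), and chromosome 1 carries IL22RA1 (24119771 to 24143140) beside IFNLR1 (24154168 to 24187289). IL10RA stands on chromosome 11 (117986394 to 118003037) and IL20RB on chromosome 3 (136957983 to 137011085). Promoter sequence from RefSeq, 250 bases before to 50 bases after the start site, was available for 9 of the genes, as 12 promoters, and was missing for IFNAR2. Since TNF-α acts through NF-kB and IL-10 through STAT3, both strands were searched for the NF-kB consensus and for the STAT-type pattern TTCNNNGAA. The NF-kB consensus stood in the promoters of IFNGR2, IFNGR1 and IL22RA1, 3 of the 12 promoters, and in 5.91% of all 35116 promoters. The pattern TTCNNNGAA stood in IL10RB and IFNLR1, 2 of the 12, and in 7.66% of all. The start used in the table lies 531 bases inside IFNGR2 and 189 bases inside IFNGR1 as their positions are given above, so both of those matches fall within the gene, at an inner start. A second IFNGR1 promoter, at the outer start, held no match. These matches describe letters in a window and do not show that a factor binds there. No link between a match and the changes described below was tested. The 3 promoters with the NF-kB match and that of IL10RB are shown, 5′ to 3′ on the gene's strand with the match in capitals.
IFNGR2 (chr21:33403163-33403462, plus strand, match at -99 to -90 from the inner start): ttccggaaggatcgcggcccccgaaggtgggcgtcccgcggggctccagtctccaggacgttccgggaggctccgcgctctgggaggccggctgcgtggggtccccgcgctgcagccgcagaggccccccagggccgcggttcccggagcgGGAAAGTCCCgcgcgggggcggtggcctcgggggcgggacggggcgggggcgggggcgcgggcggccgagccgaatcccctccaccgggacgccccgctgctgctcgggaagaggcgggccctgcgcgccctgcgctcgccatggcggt
IFNGR1 (chr6:137219147-137219446, minus strand, match at 21 to 30 from the inner start): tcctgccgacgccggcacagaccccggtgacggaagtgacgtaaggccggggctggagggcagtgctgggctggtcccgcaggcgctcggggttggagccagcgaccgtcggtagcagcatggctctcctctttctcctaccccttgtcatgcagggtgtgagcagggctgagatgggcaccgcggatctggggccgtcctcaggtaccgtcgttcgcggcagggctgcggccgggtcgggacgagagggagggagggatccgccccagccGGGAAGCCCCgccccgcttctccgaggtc
IL22RA1 (chr1:24143091-24143390, minus strand, match at -157 to -148): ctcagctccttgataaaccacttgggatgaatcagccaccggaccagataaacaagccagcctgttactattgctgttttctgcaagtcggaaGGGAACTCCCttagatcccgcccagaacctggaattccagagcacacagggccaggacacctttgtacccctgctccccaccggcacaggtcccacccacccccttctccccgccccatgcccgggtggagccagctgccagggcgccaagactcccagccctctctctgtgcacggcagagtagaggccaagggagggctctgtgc
IL10RB (chr21:33266117-33266416, plus strand, match at 11 to 19): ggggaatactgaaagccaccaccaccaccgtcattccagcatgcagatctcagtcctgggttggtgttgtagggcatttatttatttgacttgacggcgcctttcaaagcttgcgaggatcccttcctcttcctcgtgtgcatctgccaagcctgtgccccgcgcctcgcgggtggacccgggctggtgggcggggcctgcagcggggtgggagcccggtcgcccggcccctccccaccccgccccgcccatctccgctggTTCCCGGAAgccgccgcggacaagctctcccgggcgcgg

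Both IL-10 receptor chains stood far below 1 FPKM in every one of the 54 libraries. IL10RA, the ligand-binding chain, was present at a low level in HCT116 and was listed at 0 in most HepG2 libraries. In HCT116 it ranged over the 27 libraries from 0.0821 to 0.248 FPKM with a median of 0.161, on 24 to 76 reads per library and 1250 reads in all. IL-10-treated HCT116 cells had 0.242, 0.161 and 0.211 FPKM at 3 h and 0.194, 0.190 and 0.148 FPKM at 6 h, against 0.176, 0.157 and 0.156 FPKM in NC. The IL-10 and NC libraries overlapped at both times. Torin1 libraries were the lowest, at 0.0977, 0.0821 and 0.0990 FPKM at 3 h and 0.0996, 0.0858 and 0.0921 FPKM at 6 h, all below the 3 NC libraries. IL10RA lay under the expression filter, and in a fit with no filter the Torin1 effect was -0.09 at both times (limma adjusted p 0.0293 and 0.0269). In the same fit, neither IL-6, IL-10 nor TNF-α changed IL10RA past the threshold in HCT116, with TNF-α at 3 h nearest (log2 difference 0.08, limma adjusted p 0.0599).

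In HepG2, IL10RA was listed at 0 in 23 of 27 libraries. The other 4 libraries held 12 reads together, at 0.00594 FPKM in 1 library given IL-10 for 6 h and at 0.0136, 0.00721 and 0.0117 FPKM in 3 libraries given Torin1. In the shallowest HepG2 library, 3 reads would stand for 0.0126 FPKM, the limit that a count of 0 allows there. A 0 in this table can also be a failed estimate, since FTH1 and EIF4A1, which every cell uses, were listed at 0 in all 54 libraries. ACTB, in contrast, stood at 1157 to 2071 FPKM. Between the NC groups, IL10RA was higher in HCT116 than in HepG2 by 0.22 (limma adjusted p 1.21e-12 in the fit with no filter).

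IL10RB, the shared second chain, was detected in all 54 libraries and was low in each. HCT116 had 0.0148 to 0.152 FPKM (median 0.0754, 3 to 32 reads per library) and HepG2 had 0.00612 to 0.0682 FPKM (median 0.0283, 1 to 13 reads per library). IL-10-treated HCT116 cells had 0.0991, 0.110 and 0.0303 FPKM at 3 h and 0.0736, 0.0410 and 0.0770 FPKM at 6 h, against 0.0875, 0.0572 and 0.0595 FPKM in NC. IL-10-treated HepG2 cells had 0.0390, 0.0105 and 0.0277 FPKM at 3 h and 0.0303, 0.0467 and 0.0198 FPKM at 6 h, against 0.0208, 0.0154 and 0.0352 FPKM in NC. Treated and control libraries overlapped in all 4 of these comparisons. With so few reads per library, small changes of IL10RB were not detectable at this depth. In a fit with no filter, limma called no change of IL10RB against NC. The lowest limma adjusted p was 0.208, with IL-6 at 3 h in HCT116 (log2 difference 0.08). Even with no filter the difference between the NC groups was 0.06, HCT116 minus HepG2 (limma adjusted p 0.0871).

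**Figure D1:**
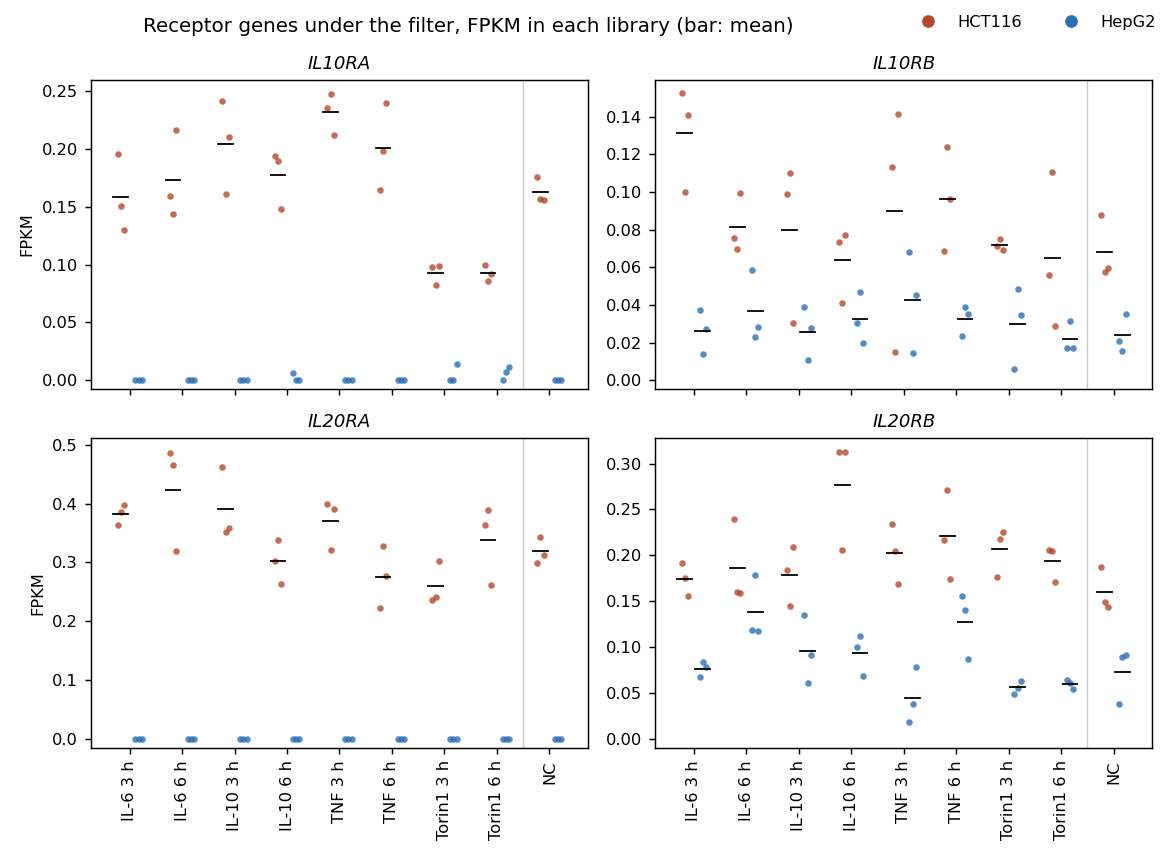
FPKM per library of the 4 receptor chains that lay under the expression filter, 1 panel per gene with its own axis, HCT116 in red and HepG2 in blue, treated groups left of NC, points for libraries and bars for means where all 3 libraries were above 0. All values stay below 0.5 FPKM, IL10RA and IL20RA are listed at 0 in most or all HepG2 libraries, and IL10RB is low throughout.

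The level of IL10RB has to be read beside the annotation of its locus. IFNAR2 and IL10RB are neighbours in the same orientation, and IFNAR2-IL10RB (33229938 to 33297221) spans both. It was listed at 0 in all 54 libraries. In GENCODE gene models of the same genome build, a joined transcript of IFNAR2 and IL10RB covered 1732 of 1963 exon bases (88.2%) of IL10RB-201 and 926 of its 975 coding bases. It covered 1968 of 4284 exon bases (45.9%) of IFNAR2-205 and 1965 of 2899 (67.8%) of IFNAR2-202. IL10RB-201 therefore had 231 exon bases that the joined transcript did not share, against 2316 in IFNAR2-205.

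Other joined genes in the table were looked at for the same pattern. Of 198 entries described as readthrough, 94 were listed at 0 in all libraries and 4 reached 1 FPKM in any library. For 170 of them both partner genes had an entry. The upstream partner averaged at least 1 FPKM in 86 of the 170 pairs (50.6%, median 1.08 FPKM) and the downstream partner in 18 (10.6%, median 0.0156 FPKM). IL10RB is such a downstream partner and IFNAR2 an upstream one. No source used here says how reads on exons shared by several genes were counted. The part of the overlap in the low IL10RB value was not tested. No entry joined IL10RA to a neighbour.

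**Figure D2:**
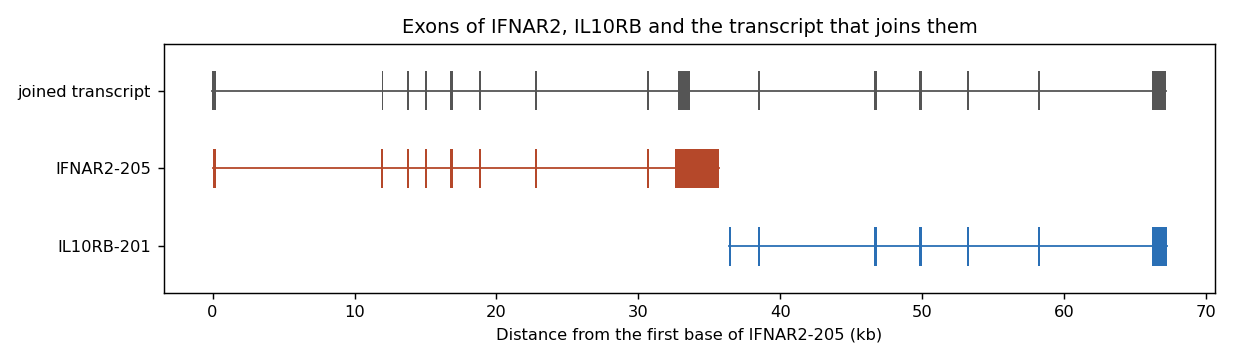
Exons of the joined transcript, IFNAR2-205 and IL10RB-201 drawn to scale as boxes, with the distance in kb from the first base of IFNAR2-205 on the horizontal axis. Nearly all of IL10RB-201, 88.2% of its exon bases, lies under exons of the joined transcript, while IFNAR2-205 keeps more than 2000 exon bases of its own.

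Genes that STAT3 is known to induce were then read as a measure of signalling downstream of IL-10, with IL-6, which acts on STAT3 through another receptor, beside it. The list had 19 genes, of which 14 were tested in HCT116 and 18 in HepG2. Both cytokines were set against the same NC libraries. In HepG2, IL-6 raised 15 of 18 genes and lowered 0 at 3 h (median log2 difference 0.96, against -0.02 over all genes), where 33.9% of all genes were called. At 6 h it raised 14 and lowered 1 (median 0.84 against -0.01 over all genes, 19.4% called). IL-10 in HepG2 raised 9 of 18 and lowered 1 at 3 h (median 0.15 against -0.01, 19.1% called), and raised 1 and lowered 2 at 6 h (median -0.04 against -0.03, 11.7% called). The list was not particular to these 2 cytokines. At 3 h in HepG2, TNF-α raised 13 and lowered 3 (median 0.20, 29.7% called). Torin1 raised 10 and lowered 1 there (median 0.18, 45.5% called). Set against IL-10 directly, IL-6 was higher for 14 of 18 genes and lower for 1 at 3 h (22.8% of all genes called), and higher for 15 and lower for 1 at 6 h (23.6% called).

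SOCS3, the feedback inhibitor that STAT3 induces, showed the widest gap. HepG2 had 4.58, 3.22 and 2.95 FPKM after 3 h of IL-6 and 8.27, 9.04 and 8.52 FPKM after 6 h. After IL-10 it had 0.20, 0.172 and 0.226 FPKM at 3 h and 0.142, 0.0531 and 0.00676 FPKM at 6 h, against 0.125, 0.0700 and 0.0560 FPKM in NC. The IL-6 libraries lay far above all others, the 3 h IL-10 libraries lay just above NC, and the 6 h IL-10 libraries overlapped NC. SOCS3 differed from NC by 2.06 (SE 0.09, limma adjusted p 2.09e-13) after 3 h of IL-6 and by 0.15 (SE 0.09, limma adjusted p 0.275) after 3 h of IL-10. IL-6 stood above IL-10 by 1.92 at 3 h (limma adjusted p 1.23e-12) and by 3.17 at 6 h (limma adjusted p 1.86e-16). STAT3 itself, which is its own target, had 59.8, 58.3 and 57.7 FPKM after 3 h of IL-6 and 30.8, 32.8 and 34.0 FPKM after 3 h of IL-10, against 29.9, 31.1 and 30.6 FPKM in NC. Only the IL-6 libraries stood apart from NC: the log2 difference was 0.92 for IL-6 (limma adjusted p 2.18e-14) and 0.09 for IL-10 (limma adjusted p 0.0894).

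The HepG2 genes on the list that IL-10 moved most at 3 h were JUNB and BCL3, an AP-1 factor and an NF-kB cofactor. JUNB had 12.5, 13.7 and 10.2 FPKM after 3 h of IL-10, against 4.96, 5.26 and 4.77 FPKM in NC, with no overlap. The difference was 1.12 (SE 0.11, limma adjusted p 4.6e-07) at 3 h and -0.04 (limma adjusted p 0.856) at 6 h. BCL3 rose by 0.85 at 3 h (limma adjusted p 1.61e-07). Both genes also rose with other treatments. In HepG2, JUNB also rose with 3 h of IL-6 (1.83), TNF-α (1.86) and Torin1 (1.17), each set against the same NC libraries, and BCL3 rose with IL-6 (1.47) and TNF-α (1.76).

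In HCT116 the same list moved less with IL-6, and at 3 h with IL-10. IL-6 raised 7 of 14 genes and lowered 0 at 3 h (median 0.23 against 0.00 over all genes, 31.6% of all genes called), and raised 4 and lowered 0 at 6 h (median 0.05 against 0.01, 16.6% called). IL-10 raised 6 and lowered 1 at 3 h (median 0.09 against 0.01, 38.8% called). At 3 h, TNF-α raised 11 and lowered 0 (median 0.62, 41.6% called), and Torin1 raised 6 and lowered 2 (median 0.13, 53.7% called). At 6 h of IL-10 limma called 0 of 14, where 20.5% of all genes were called; 0 of 14 had an unadjusted p under 0.05 and voom called 0. The 3 h rises with IL-10 were led by PIM1, a kinase, with a log2 difference of 0.77 (limma adjusted p 1.3e-06), and JUNB with 0.41 (limma adjusted p 6.09e-06). Both rose after 3 h of Torin1 too, PIM1 by 2.67 and JUNB by 0.47. SOCS3 went the other way, with 2.32, 2.28 and 2.19 FPKM after 3 h of IL-10, against 2.54, 3.02 and 3.36 FPKM in NC (log2 difference -0.28, limma adjusted p 0.00187). It was also below NC after 3 h of Torin1, at 1.94, 2.14 and 1.78 FPKM. TNF-α for 3 h gave 4.06, 3.74 and 4.35 FPKM of SOCS3, above NC, and IL-6 gave 3.11, 3.15 and 3.55 FPKM, overlapping NC. STAT3 rose by 0.60 with IL-6 at 3 h (limma adjusted p 2.38e-09) and by 0.11 with IL-10 (limma adjusted p 0.0434). Between IL-6 and IL-10 libraries of HCT116, limma called 27 genes at 3 h (0.237%) and 13 at 6 h (0.114%). STAT3 was among them at both times, higher with IL-6 than with IL-10 by 0.49 and 0.43 (limma adjusted p 1.46e-06 and 1.46e-05).

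**Figure D3:**
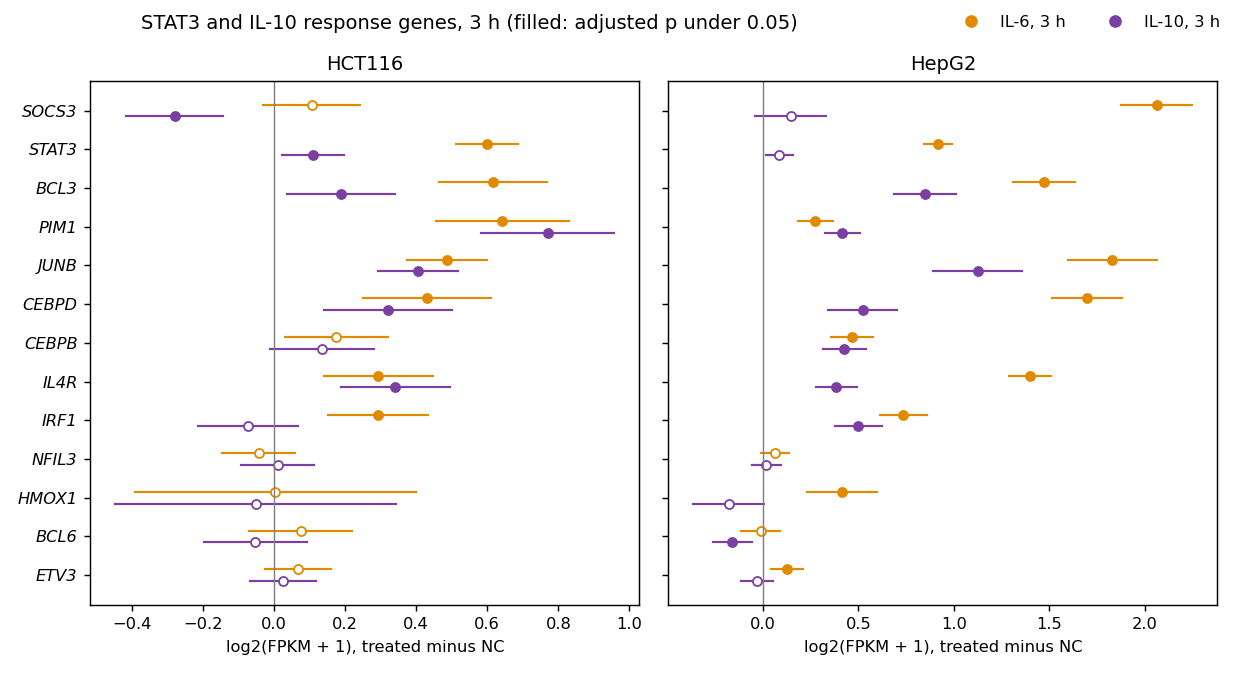
Log2 differences against NC at 3 h for 13 genes on the STAT3 and IL-10 response list, with IL-6 in orange above IL-10 in purple for each gene, HCT116 left of HepG2 on its own axis, bars for 95% intervals and filled symbols for a limma adjusted p under 0.05. In HepG2 the IL-6 points reach 2.06 for SOCS3 and most lie right of the IL-10 points, while in HCT116 the gaps are widest for SOCS3, STAT3 and BCL3.

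Among the chains for IL-20 and IL-22, only IL22RA1 passed the filter. IL22RA1, the ligand-binding chain for IL-22, ranged from 0.618 to 1.54 FPKM (median 1.02) in HCT116 and from 3.03 to 7.02 FPKM (median 5.09) in HepG2. After 3 h of IL-10 or TNF-α it was lower than NC in HCT116 and higher in HepG2. In HCT116 given IL-10 for 3 h it had 0.618, 0.701 and 0.763 FPKM, against 1.13, 1.18 and 1.12 FPKM in NC, and all treated libraries were below all controls. This was a log2 difference of -0.34 (SE 0.09, limma adjusted p 0.00383). IL-6 at 3 h gave 0.671, 0.862 and 0.637 FPKM and a difference of -0.32 (SE 0.09, limma adjusted p 0.00816). TNF-α at 3 h gave 0.830, 1.02 and 0.667 FPKM and -0.23 (limma adjusted p 0.0422). That last call was lost without TNF-α library 1 or 3 or any 1 of the 3 NC libraries (limma adjusted p 0.0726 to 0.205). At 6 h in HCT116, limma called IL22RA1 under none of the 4 treatments.

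HepG2 cells given TNF-α for 3 h had 7.01, 6.43 and 7.02 FPKM of IL22RA1, against 3.97, 4.43 and 4.42 FPKM in NC. All 3 treated libraries were above all controls, and the difference was 0.57 (SE 0.06, limma adjusted p 5.25e-07). Torin1 gave 5.96, 5.95 and 6.58 FPKM at 3 h and 5.77, 5.18 and 5.62 FPKM at 6 h. Both groups lay above NC, by 0.44 (limma adjusted p 7.96e-06) and 0.31 (limma adjusted p 0.000278). IL-10 at 3 h gave 4.57, 6.01 and 5.46 FPKM and a difference of 0.26 (limma adjusted p 0.00612), which was not called without library 2 of that group (0.19, limma adjusted p 0.0537). It was also not called with only the 2 groups fitted (limma adjusted p 0.0981). TNF-α at 6 h gave 5.11, 5.18 and 5.09 FPKM and 0.22 (limma adjusted p 0.0132), not called without NC library 1 (0.18, limma adjusted p 0.0739). IL-6 at 3 h gave 3.97, 4.19 and 4.40 FPKM in HepG2, which overlapped NC (-0.02, limma adjusted p 0.811). IL-6 at 6 h was the single treatment that lowered it in HepG2, with 3.46, 3.29 and 3.03 FPKM (-0.31, limma adjusted p 0.00143).

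IL20RA and IL20RB, the chains that form the IL-20 receptor, stayed under 0.5 FPKM. IL20RA ranged from 0.222 to 0.487 FPKM in HCT116 (median 0.339), and was listed at 0 in all 27 HepG2 libraries. IL20RB ranged from 0.143 to 0.313 FPKM in HCT116 (median 0.191) and from 0.0181 to 0.178 FPKM in HepG2 (median 0.0782). HCT116 cells given IL-10 for 6 h had 0.312, 0.206 and 0.313 FPKM of IL20RB, against 0.188, 0.150 and 0.143 FPKM in NC, without overlap. In the fit with no filter this was a difference of 0.14 (limma adjusted p 0.0360). IL20RB-AS1, an antisense gene, overlaps 24209 bases of IL20RB and reached 0.137 FPKM, and the counting is not stated to use strand. IL22RA2, which encodes the soluble decoy for IL-22, was listed at 0 in 26 of 27 HCT116 libraries and in 23 of 27 HepG2 libraries.

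The chains of the type I interferon receptor were expressed in both lines. IFNAR1 was the steadier of the pair, at 10.3 to 15.6 FPKM in HCT116 (median 11) and 11.2 to 16.2 FPKM in HepG2 (median 13.9). HCT116 cells given TNF-α had 13.3, 13.1 and 13.7 FPKM at 3 h and 15.6, 15.5 and 14.8 FPKM at 6 h, against 10.5, 10.3 and 10.6 FPKM in NC. Both TNF-α groups lay above NC with no overlap, by 0.33 (SE 0.03, limma adjusted p 8.42e-08) and 0.51 (SE 0.03, limma adjusted p 9.47e-11). No other treatment changed IFNAR1 past the threshold in HCT116, except Torin1 at 6 h when its library 2 was left out (0.11, limma adjusted p 0.0114). HepG2 cells given TNF-α had 15.2, 14.6 and 15.3 FPKM at 3 h and 16.2, 15.7 and 15.8 FPKM at 6 h, against 13.5, 13.4 and 13.1 FPKM in NC. The rises were 0.16 (limma adjusted p 0.00166) and 0.24 (limma adjusted p 4.79e-05). IL-6 raised it by 0.16 at both times in HepG2 (limma adjusted p 0.00197 and 0.00294).

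IL-10 was the only treatment that lowered IFNAR1 in HepG2. IL-10 libraries had 12.8, 11.2 and 12.4 FPKM at 3 h and 12.6, 12.2 and 11.8 FPKM at 6 h, all under the lowest NC library of 13.1 FPKM. The difference was -0.12 at both times (limma adjusted p 0.0219 and 0.0364). The call at 3 h was lost without IL-10 library 2 (-0.07, limma adjusted p 0.167) or NC library 1 or 2 (limma adjusted p 0.0718 and 0.0675). The call at 6 h was lost without IL-10 library 2 or 3 or any 1 of the NC libraries (limma adjusted p 0.0511 to 0.154). The 6 h call was also lost with 2 other scalings (0.0687 and 0.143), with voom (0.0633), with no filter (0.0847) and with only the 2 groups fitted (0.0520), as limma adjusted p, and the 3 h call with no filter (0.0513) and with only the 2 groups (0.136).

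IFNAR2, the high-affinity chain for type I interferons, moved in opposite directions with TNF-α and Torin1, and did so in both lines. HCT116 cells given TNF-α had 4.96, 5.04 and 5.16 FPKM at 3 h and 4.94, 5.34 and 4.93 FPKM at 6 h, against 2.88, 2.61 and 2.84 FPKM in NC. HCT116 cells given Torin1 had 1.89, 1.78 and 1.80 FPKM at 3 h and 1.99, 1.69 and 2.38 FPKM at 6 h. The TNF-α libraries were all above the controls and the Torin1 libraries all below them. Means were 1.82 times those of NC for TNF-α at 3 h (log2 difference 0.68, SE 0.07, limma adjusted p 3.03e-08) and 0.655 times for Torin1 at 3 h (-0.42, SE 0.07, limma adjusted p 1.28e-05). At 6 h the log2 differences were 0.68 for TNF-α and -0.33 for Torin1 (limma adjusted p 3.47e-08 and 0.000194).

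In HepG2, TNF-α gave 11.5, 10.9 and 11 FPKM of IFNAR2 at 3 h and 8.32, 7.59 and 8.50 FPKM at 6 h, against 5.28, 5.30 and 4.99 FPKM in NC. Torin1 gave 3.68, 3.38 and 3.16 FPKM at 3 h and 2.85, 3.04 and 3.33 FPKM at 6 h. Again neither group overlapped NC. TNF-α stood at 2.15 times NC at 3 h (log2 difference 0.97, SE 0.05, limma adjusted p 1.53e-12) and Torin1 at 0.656 times (-0.49, limma adjusted p 4.28e-08). At 6 h the differences were 0.56 for TNF-α (limma adjusted p 1.75e-08) and -0.60 for Torin1 (limma adjusted p 9.08e-10). IL-6 raised IFNAR2 by 0.21 at 3 h in HepG2 (limma adjusted p 0.00176). IL-10 did not change it past the threshold in either line, with log2 differences of 0.01 and 0.00 in HCT116 and 0.10 and -0.10 in HepG2 at 3 h and 6 h. IFNAR2 shares exon bases with the joined transcript described above.

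Of the interferon γ receptor, IFNGR1, the ligand-binding chain, was the most abundant of the 10 members in both lines, and it responded to IL-6 far more in HepG2 than in HCT116. Over the 27 libraries it ranged from 11.1 to 23.1 FPKM in HCT116 (median 13.5) and from 34.0 to 83.0 FPKM in HepG2 (median 50.9). HepG2 cells given IL-6 had 82.2, 83.0 and 78.8 FPKM at 3 h and 63.8, 69.9 and 67.6 FPKM at 6 h, against 36.9, 37.0 and 36.5 FPKM in NC. All IL-6 libraries lay far above NC, at means 2.21 and 1.82 times the NC mean. The log2 differences were 1.12 (SE 0.04, limma adjusted p 7.16e-15) and 0.85 (SE 0.04, limma adjusted p 9.62e-13). In HCT116, IL-6 gave 14.1, 13.8 and 14.4 FPKM at 3 h, against 12.3, 12.3 and 11.4 FPKM in NC, without overlap and with a difference of 0.22 (SE 0.06, limma adjusted p 0.00476).

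TNF-α raised IFNGR1 in both lines at both times. HCT116 had 20.3, 22.1 and 23.0 FPKM at 3 h and 23.1, 22.8 and 22.1 FPKM at 6 h, above all NC libraries by 0.81 (limma adjusted p 1.35e-10) and 0.87 (limma adjusted p 6.29e-11). HepG2 had 61.1, 61.7 and 64.6 FPKM at 3 h and 60.5, 58.0 and 63.4 FPKM at 6 h, above all NC libraries by 0.75 (limma adjusted p 2.85e-12) and 0.70 (limma adjusted p 1.86e-11). Torin1 raised it in HepG2 by 0.47 at 3 h and 0.31 at 6 h (limma adjusted p 2.92e-09 and 6.99e-07), and in HCT116 the difference was -0.04 at both times (limma adjusted p 0.526 and 0.549). IL-10 raised IFNGR1 in HCT116, to 16.3, 13.2 and 13.5 FPKM at 3 h and 14.5, 13.9 and 13.4 FPKM at 6 h. These libraries lay above NC by 0.24 and 0.20 (limma adjusted p 0.00189 and 0.0133), and the 6 h call was lost without IL-10 library 1 or NC library 3 (limma adjusted p 0.0696 and 0.0705). The 3 h call was lost with only the 2 groups fitted (limma adjusted p 0.0624). IL-10 in HepG2 gave 43.2, 41.7 and 41.5 FPKM at 3 h (0.19, limma adjusted p 0.00171) and 34.2, 35.6 and 34.0 FPKM at 6 h (-0.09, limma adjusted p 0.149).

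IFNGR2, the signalling partner of IFNGR1, was the member with the largest log2 change in HCT116. TNF-α gave 5.90, 6.30 and 6.61 FPKM at 3 h and 5.90, 5.37 and 5.91 FPKM at 6 h, against 1.77, 1.60 and 1.54 FPKM in NC. All TNF-α libraries stood above every other HCT116 library of IFNGR2, and the means were 3.83 and 3.50 times the NC mean. The differences were 1.46 (SE 0.19, limma adjusted p 2.48e-06) and 1.35 (SE 0.19, limma adjusted p 8.88e-06). No other treatment changed IFNGR2 past the threshold in HCT116, except IL-10 at 6 h when its library 2 was left out (0.62, limma adjusted p 0.0251, against 0.37 and 0.178 with it).

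HepG2 was less clear because 1 control library stood apart. TNF-α gave 4.54, 6.08 and 3.15 FPKM at 3 h and 4.0, 4.99 and 3.87 FPKM at 6 h, against 1.79, 4.80 and 2.14 FPKM in NC, and the groups overlapped. The differences of 0.56 and 0.51 were not called (SE 0.24, limma adjusted p 0.0806 and 0.114). Without NC library 2 they were 0.88 and 0.83 and were called (limma adjusted p 0.00409 and 0.00776), and without TNF-α library 3 the 3 h difference was 0.76 (limma adjusted p 0.0298). The table also held a second entry for the symbol, IFNGR2_1. It was over 3 FPKM in 6 of 54 libraries, among them HepG2 NC library 1 with 11.2 FPKM, and at or under 3 FPKM in 48. With the reads of both entries added, the TNF-α difference was 1.66 at 3 h and 1.43 at 6 h in HCT116 (limma adjusted p 0.000222 and 0.00118), and 0.06 at both times in HepG2 (limma adjusted p 0.932 and 0.924). TMEM50B overlaps 5031 bases of IFNGR2 and reached 1.5 FPKM.

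IFNLR1, the chain that binds type III interferons, was expressed in both lines, at 1.83 to 3.15 FPKM in HCT116 (median 2.38) and 3.28 to 4.97 FPKM in HepG2 (median 3.92). HCT116 cells given Torin1 for 3 h had 2.63, 3.09 and 3.03 FPKM, against 2.29, 2.08 and 2.38 FPKM in NC. The groups did not overlap, and the difference was 0.27 (SE 0.06, limma adjusted p 0.000831), with 0.22 at 6 h (limma adjusted p 0.00464). TNF-α at 6 h gave 2.89, 3.15 and 2.66 FPKM, a difference of 0.26 (limma adjusted p 0.00192). HepG2 cells given TNF-α for 3 h had 4.87, 4.97 and 4.71 FPKM, against 3.62, 3.85 and 3.34 FPKM in NC, with a difference of 0.35 (SE 0.05, limma adjusted p 2.9e-05). Torin1 for 3 h gave 4.24, 4.89 and 4.12 FPKM in HepG2 and 0.23 (limma adjusted p 0.00107). IL-10 for 3 h lowered IFNLR1 in HCT116, at 1.84, 1.91 and 1.96 FPKM (-0.16, limma adjusted p 0.0411). In HepG2, IL-10 for 3 h gave 4.03, 4.28 and 3.94 FPKM, above all NC libraries, with a difference of 0.14 that was not called (limma adjusted p 0.0636); it was called with voom (0.20, adjusted p 0.0363), with a replicate block (limma adjusted p 0.0155) and without NC library 2 (0.18, limma adjusted p 0.0418). This was not particular to IL-10. IL-6 for 3 h (0.13, limma adjusted p 0.0549) and Torin1 for 6 h (0.12, limma adjusted p 0.0585) were also not called in HepG2. Both were called with voom, with a replicate block and without NC library 2. The HCT116 call with IL-10 was lost without any 1 of the 3 IL-10 libraries or NC library 1 or 3 (limma adjusted p 0.0536 to 0.144). It was lost too with no filter and with only the 2 groups fitted (limma adjusted p 0.105 and 0.0550).

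**Figure D4:**
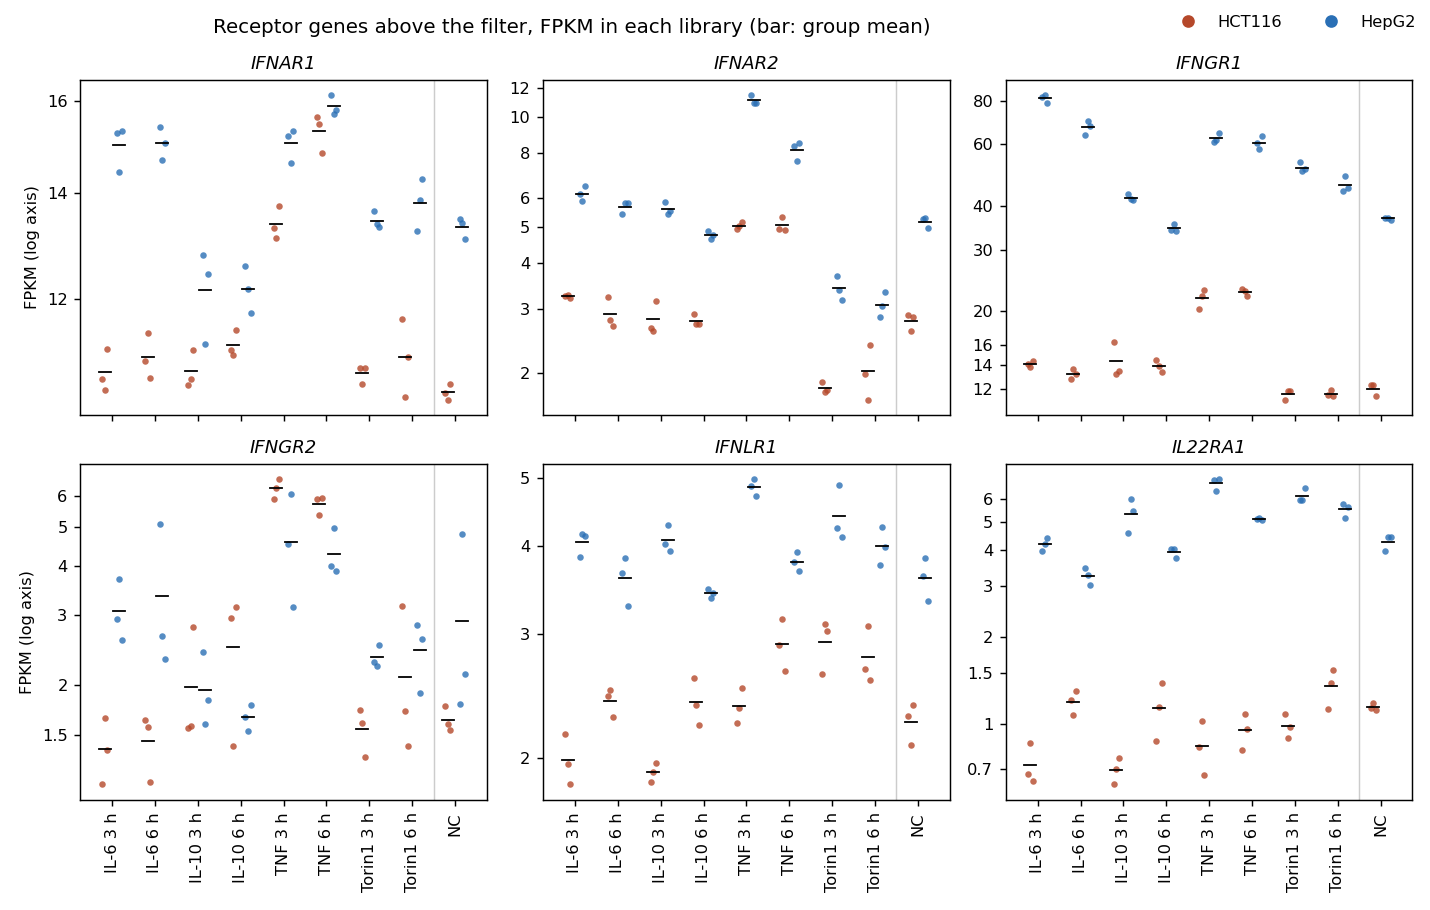
FPKM per library of the 6 receptor chains that were tested, 1 panel per gene with its own log axis, HCT116 in red and HepG2 in blue, treated groups left of NC, points for libraries and bars for group means. IFNGR1 in HepG2 reaches 83.0 FPKM after IL-6, IFNAR2 is high with TNF-α and low with Torin1 in both lines, and NC library 2 of HepG2 stands apart for IFNGR2.

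Counted over the 6 tested members, TNF-α moved the most. In HCT116 it raised 4 and lowered 1 at 3 h, and raised 5 and lowered 0 at 6 h, where 41.6% and 33.9% of all genes were called. In HepG2 it raised 5 at 3 h and 4 at 6 h and lowered 0 at either time, where 29.7% and 28.7% of all genes were called. The median log2 difference over the members was 0.50 and 0.60 in HCT116 and 0.56 and 0.37 in HepG2 at 3 h and 6 h, against medians over all genes between -0.03 and 0.00. Torin1 raised 1 and lowered 1 member at each time in HCT116, where it called 53.7% and 57.2% of all genes. In HepG2 it raised 3 and lowered 1 at 3 h (45.5% of all genes called) and raised 2 and lowered 1 at 6 h (59.9% called). With Torin1, the called share of the members was below that of all genes in 3 of the 4 comparisons.

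Set against the untimed NC libraries, IL-10 groups differed for 3 of 6 members in each line at 3 h and for 1 of 6 at 6 h. An effect of IL-10 cannot be told apart there from one of handling or time. Between IL-6 and IL-10 in HCT116, limma called 0 of 6 members at each time (0.237% and 0.114% of all genes called). Against NC in HCT116, IL-10 raised 1 and lowered 2 of 6 at 3 h, and raised 1 and lowered 0 at 6 h. These shares were near the 38.8% and 20.5% of all genes called. In HepG2, IL-10 raised 2 and lowered 1 at 3 h, and raised 0 and lowered 1 at 6 h, where 19.1% and 11.7% were called. In HepG2 at 3 h, IFNLR1 would join the members raised by IL-10 under voom or the replicate block, as given above. The same held there for IL-6 at 3 h and Torin1 at 6 h. The largest called log2 difference with IL-10 was -0.34, for IL22RA1 in HCT116. IL-6 raised 1 and lowered 1 in HCT116 at 3 h (31.6% of all genes called). At 6 h in HCT116 (16.6% called) limma called 0 of 6 with IL-6, with 1 at an unadjusted p under 0.05 and 0 by voom. In HepG2, IL-6 raised 3 and lowered 0 at 3 h (33.9% called) and raised 2 and lowered 1 at 6 h (19.4% called). All 8 comparisons within a line share the same 3 NC libraries.

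**Figure D5:**
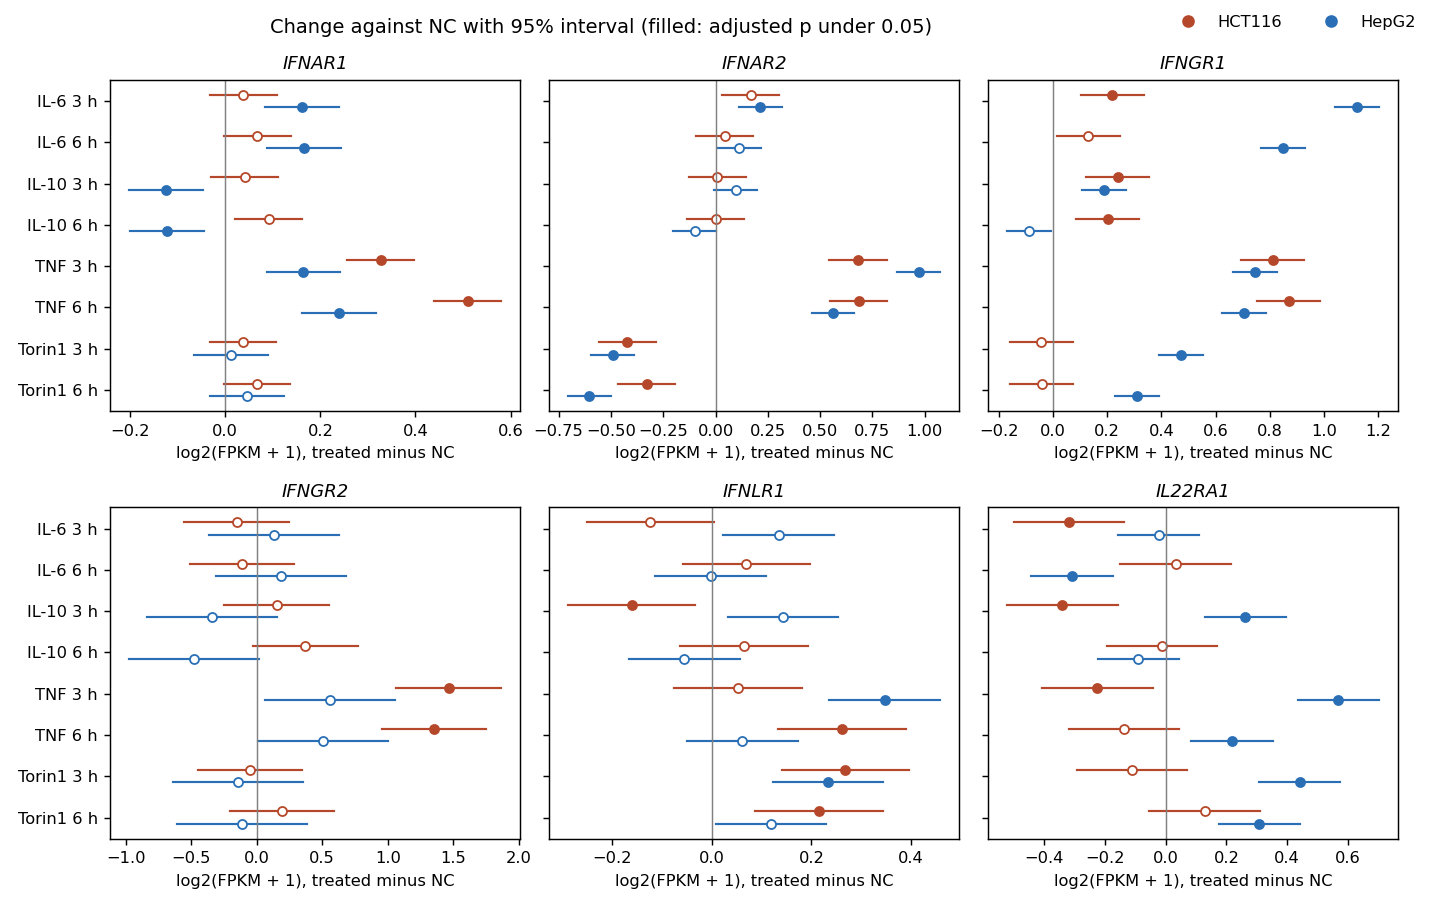
Log2 differences against NC, on the log2(FPKM + 1) scale, of the 6 tested receptor chains in each treated group, 1 panel per gene with its own axis, HCT116 in red above HepG2 in blue, bars for 95% intervals and filled symbols for a limma adjusted p under 0.05. The largest values are IFNGR2 with TNF-α in HCT116 (1.46) and IFNGR1 with IL-6 in HepG2 (1.12), and the called IL-10 values lie between -0.34 and 0.26.

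Set against IL-10 of the same hour, which avoids the untimed NC libraries, TNF-α was higher for 5 of 6 members and lower for 0 in HCT116 at both times, where 36.5% and 42.3% of all genes were called. In HepG2 it was higher for 6 of 6 at 3 h (16.1% called), and higher for 5 and lower for 0 at 6 h (34.8% called). Torin1 was higher for 2 and lower for 2 members at 3 h and higher for 1 and lower for 2 at 6 h in HCT116 (44.3% and 57.3% of all genes called). In HepG2 it was higher for 3 and lower for 1 at 3 h and higher for 4 and lower for 1 at 6 h (45.5% and 59% called). The member lower with Torin1 in all 4 of these comparisons was IFNAR2, at log2 differences of -0.43 and -0.33 in HCT116 and -0.59 and -0.50 in HepG2. IL-6 in HepG2 was higher for 2 and lower for 1 member at 3 h (22.8% called), and higher for 4 and lower for 1 at 6 h (23.6% called). Of those 4, IFNGR2 lost its call without any 1 of 5 of the 6 libraries compared (limma adjusted p 0.0523 to 0.275). IFNGR1 exceeded its IL-10 level by 0.93 and 0.94 with IL-6 in HepG2. Between IL-6 and IL-10 in HCT116, where 0.237% and 0.114% of all genes were called, limma called 0 of 6 members at each time, with 1 of 6 at an unadjusted p under 0.05 and 0 by voom at each time. IFNGR2 in HepG2 was higher with TNF-α than with IL-10 by 0.90 at 3 h, a call lost without TNF-α library 2 (0.71, limma adjusted p 0.0723) and with the reads of IFNGR2_1 added (0.91, limma adjusted p 0.0853), and by 0.99 at 6 h.

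Between 3 h and 6 h the called changes ran upward in HCT116 and downward in HepG2. HCT116 had 7 calls over the 4 treatments, all higher at 6 h, and HepG2 had 10, all lower at 6 h. For IL-6, IL-10, TNF-α and Torin1 these were 2, 2, 2 and 1 of 6 members in HCT116. In HepG2 they were 2, 4, 3 and 1 of 6. Fitted on the 2 groups alone, the comparisons gave 3 calls in HCT116 and 10 in HepG2. The share of all genes called was 18.4% for IL-6, 20% for IL-10, 37.3% for TNF-α and 30.4% for Torin1 in HCT116, and 23.5%, 16%, 25.4% and 36.4% in HepG2 in the same order. In HCT116 the members' share was above that of all genes with IL-6 and IL-10 and below it with TNF-α and Torin1. In HepG2 after IL-10, IFNAR2, IFNGR1, IFNLR1 and IL22RA1 were lower at 6 h than at 3 h, with log2 differences of -0.19, -0.28, -0.20 and -0.35 in that order. The IFNLR1 call was lost without IL-10 library 2 at 3 h (limma adjusted p 0.0706). In HCT116 after IL-10, IFNLR1 and IL22RA1 were higher at 6 h by 0.23 and 0.33, and these calls were lost without 6 h library 1 (limma adjusted p 0.0664) and 6 h library 3 (limma adjusted p 0.0685). Leaving out a library also ended the HCT116 calls of IFNLR1 with IL-6 (limma adjusted p 0.0766 to 0.146) and TNF-α (0.0633). The same held for IL22RA1 with Torin1 (limma adjusted p 0.0900 to 0.170). With no filter, the IL-6 and Torin1 calls were lost too (limma adjusted p 0.0787 and 0.0942).

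The difference in effect between the lines was tested directly for each tested member and treatment, HCT116 minus HepG2, in a fit over 9683 genes expressed in both. The IL-6 effect on IFNGR1 was smaller in HCT116, with a difference of effects of -0.90 at 3 h and -0.72 at 6 h, and that of Torin1 was also smaller, with differences of -0.52 and -0.35. The IL22RA1 effects at 3 h differed by -0.60 for IL-10, -0.79 for TNF-α and -0.55 for Torin1. Members with a called difference numbered 3 and 2 of 6 for IL-6 at 3 h and 6 h (33.3% and 15.8% of all genes called), 3 and 2 for IL-10 (24.4% and 16.8%), 5 and 2 for TNF-α (22.9% and 16.8%), and 2 and 2 for Torin1 (39.9% and 50.1%).

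In the NC groups all 6 tested members were lower in HCT116 than in HepG2, where 85.6% of all genes differed between the lines. IFNGR1 averaged 12 ± 0.502 FPKM in HCT116 and 36.8 ± 0.273 FPKM in HepG2 (SD, n = 3 each), a log2 difference of -1.54 (limma adjusted p 2.22e-28). IL22RA1 averaged 1.14 ± 0.0334 FPKM in HCT116 and 4.27 ± 0.262 FPKM in HepG2 (-1.30, limma adjusted p 4.27e-19). IFNAR2, IFNLR1 and IFNAR1 differed by -0.71, -0.50 and -0.32. IFNGR2 differed by -0.49 (limma adjusted p 0.0381), which became -0.17 without HepG2 NC library 2 (limma adjusted p 0.486). It was also not called without HCT116 NC library 2 or 3 (limma adjusted p 0.0735 and 0.0827). The IFNGR2 call was lost too with no filter (limma adjusted p 0.0729), total-read sizes (-0.34, limma adjusted p 0.153) and voom (adjusted p 0.0690). Within HCT116 NC the order of the length-scaled levels was IFNGR1, IFNAR1, IFNAR2, IFNLR1, IFNGR2, IL22RA1, IL20RA, IL10RA, IL20RB and IL10RB, and IL10RA and IL20RB overlapped there. Within HepG2 NC it was IFNGR1, IFNAR1, IFNAR2, IL22RA1, IFNLR1, IFNGR2, IL20RB and IL10RB, with IL10RA and IL20RA listed at 0, and there IFNLR1 and IFNGR2 overlapped. The places of IL10RB and IFNGR2 are uncertain, because IL10RB shares exons with the joined transcript and the IFNGR2_1 reads are left out.

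F3, tissue factor, belongs to the same structural family but is a coagulation receptor. It averaged 53.4 FPKM in HCT116 NC and 9.05 FPKM in HepG2 NC, opposite in direction to the 6 tested cytokine receptors. HepG2 cells given TNF-α for 3 h had 28.3, 29 and 27.5 FPKM, against 8.17, 9.96 and 9.03 FPKM in NC (log2 difference 1.54, limma adjusted p 1.85e-12). IL-10 for 3 h gave 16.3, 19.0 and 15.2 FPKM in HepG2, above all NC libraries by 0.82 (limma adjusted p 2.76e-07), and IL-6 gave 17.7, 20.5 and 18.6 FPKM (0.99, limma adjusted p 3.61e-09).

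The kinases and STATs that serve these receptors numbered 12, of which 7 were tested in HCT116 and 11 in HepG2. TNF-α in HCT116 raised 6 of 7 and lowered 1 at 3 h (median 0.24, against 0.00 over all genes) and raised 5 and lowered 0 at 6 h, where 41.6% and 33.9% of all genes were called. TYK2, the kinase bound to IFNAR1 and IL10RB, rose by 0.37 at both times, and STAT3 by 0.29 at 3 h. IL-10 raised 3 of 7 in HCT116 at 3 h, among them STAT3 by 0.11, a share near the 38.8% of all genes called, and lowered 1 at 6 h (20.5% called). In HepG2, IL-10 raised 0 of 11 and lowered 1 at each time (19.1% and 11.7% of all genes called), JAK1 (-0.19 and -0.09), a kinase of the IL-10 receptor. IL-6 in HepG2 raised 6 of 11 and lowered 1 at 3 h (33.9% called). Of 11 negative regulators, all tested in HepG2, IL-10 raised 0 and lowered 2 at 3 h (19.1% of all genes called), CISH (-0.36) and PIAS1 (-0.11). The lower CISH level was not particular to IL-10. Its mean in HepG2 at 3 h was 0.580 FPKM with IL-10, 0.835 with IL-6, 0.468 with TNF-α and 0.209 with Torin1, against 1.03 in NC. IL-6 raised 4 and lowered 1 at each time (33.9% and 19.4% called), led by SOCS3, with SOCS2 higher by 0.95 at 3 h.

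Genes induced by interferons were described from a list of 21, of which 8 were tested in HCT116 and 10 in HepG2. TNF-α raised 6 of 8 and lowered 0 at both times in HCT116 (median 0.54 and 0.52, against 0.00 and -0.01 over all genes), where 41.6% and 33.9% of all genes were called. IRF1, a transcription factor, rose by 2.31 at 3 h and ISG15, a ubiquitin-like protein, by 1.48. In HepG2, TNF-α raised 5 of 10 and lowered 0 at 3 h and raised 4 and lowered 1 at 6 h (29.7% and 28.7% of all genes called). IRF1 rose there by 1.65 at 3 h and GBP1, a GTPase, by 1.42. IL-10 raised 4 of 8 in HCT116 at 3 h, led by IFIT1 with 0.45 and ISG15 with 0.37, where 38.8% of all genes were called, and lowered 1 at 6 h (20.5% called). IL-6 and Torin1 each raised 4 and lowered 0 there at 3 h (31.6% and 53.7% called). Their medians were 0.19 and 0.17, against 0.14 for IL-10. In HepG2, IL-10 raised IRF1 alone of 10 at 3 h, by 0.50, and lowered GBP1 (-0.52) and GBP2 (-0.28) at 6 h (19.1% and 11.7% called). IRF1 is also on the STAT3 list.

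Transcripts of the ligands were at or near 0, except IFNE in HCT116. None of the 17 ligand genes passed the filter in either line. IFNE, an epithelial type I interferon, was above 0 in every HCT116 library and listed at 0 in every HepG2 library. HCT116 cells given Torin1 had 0.902, 0.860 and 1.06 FPKM of IFNE at 3 h and 0.628, 0.453 and 0.589 FPKM at 6 h. NC had 0.366, 0.190 and 0.311 FPKM, below both Torin1 groups, and the difference was not tested. IL10 reached 0.0159 FPKM, and IFNB1, IFNG, IL19 and IL22 were listed at 0 in all 54 libraries.

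The members' patterns were compared over the 18 group means after each line was centred. IFNAR1 went with IFNGR2 (Pearson r 0.916) and IFNGR1 (0.865), IL22RA1 went with IFNLR1 (0.691), and IL22RA1 had an r between -0.14 and 0.02 with the 4 type I and type II chains. Among 9683 genes, those most like IFNGR2 were RELB (0.932), NFKB2 (0.932) and S100A3 (0.926), and those most like IFNAR2 were MOB3C (0.966), NUAK1 (0.952) and B4GALT5 (0.932). These groups share their NC libraries, their depth and the TNF-α and Torin1 treatments, so the values are descriptions over 18 points and carry no test.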

How the data were processed

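The authors deposited 1 table of FPKM values for 54 libraries (poly(A) RNA, paired-end MGI sequencing). Per the submitters' processing notes, FastQC, HISAT2, StringTie, DESeq2 and GRCh38 were used, with no versions; the counting tool and its use of strand are not stated. The FPKM of all 36451 entries above 0 gave whole reads within 0.01 read, and 13586 entries were 0 throughout. From there, log2(FPKM + 1) was fitted with limma 3.58.1 (R 4.3.3, trend) in each line for genes of at least 1 FPKM in 3 libraries, 11395 in HCT116 and 11280 in HepG2, and in 54-library fits between lines. P-values were adjusted by Benjamini-Hochberg over all genes tested, and intervals in plots use residual degrees of freedom. P-values measure the spread between libraries, which may be technical. Members and gene lists were chosen with earlier results of these data known. From each list the 2 called genes with the largest change per comparison were named, with their values under other treatments; BCL3 and JUNB under those treatments were added after their values were seen, and 1 gene is not reported here. Alternatives were another pseudocount, no filter, other scaling, a replicate block, fits of 2 groups, left-out libraries and voom. A further 48 columns were not used.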

Additional observations from a re-analysis of the deposited data

Results flagged for a closer look

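The effect of 21 treatment and member combinations differed between the lines, by a limma test of the difference itself (HCT116 minus HepG2, adjusted p under 0.05). Effects within a line share that line's NC libraries. For IFNGR1 the differences were -0.90 and -0.72 for IL-6 at 3 h and 6 h, 0.29 for IL-10 at 6 h, and -0.52 and -0.35 for Torin1 at 3 h and 6 h. IL22RA1 differed by -0.29 and 0.34 for IL-6 at 3 h and 6 h, -0.60 for IL-10 at 3 h, -0.79 and -0.36 for TNF-α at 3 h and 6 h, and -0.55 for Torin1 at 3 h. For IFNLR1, values at 3 h were -0.26 for IL-6, -0.30 for IL-10 and -0.29 for TNF-α. IFNAR1 differed by 0.17 and 0.21 for IL-10 and by 0.16 and 0.27 for TNF-α at 3 h and 6 h. IFNAR2 differed by -0.29 for TNF-α at 3 h and by 0.28 for Torin1 at 6 h, where it fell in both lines.

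Some of these calls were lost when 1 library was left out. The IFNGR2 difference with TNF-α at 3 h was 0.90, and it was 0.58 without HepG2 NC library 2 (limma adjusted p 0.175) and 0.71 without HepG2 TNF-α library 3 (limma adjusted p 0.124). It was also not called without HCT116 NC library 2 or 3 or HCT116 TNF-α library 2 or 3 (limma adjusted p 0.0516 to 0.0616) or with no filter (0.0589). With the reads of IFNGR2_1 added it was 1.60 (limma adjusted p 0.0132). The IL22RA1 differences for IL-6 were each lost without any 1 of 5 libraries (limma adjusted p 0.0604 to 0.0916 at 3 h and 0.0515 to 0.0704 at 6 h). The one for TNF-α at 6 h was lost without HCT116 TNF-α library 1 or HepG2 NC library 1 (limma adjusted p 0.0609 and 0.0560). The IFNLR1 difference for IL-6 was lost without HepG2 NC library 3 (limma adjusted p 0.0502), and that of IFNAR1 for IL-10 at 3 h without HepG2 IL-10 library 2 (limma adjusted p 0.0853). Other processing also ended calls. The IFNAR2 difference for TNF-α at 3 h was -0.24 with a pseudocount of 0.1 (limma adjusted p 0.0961) and -0.20 with voom (adjusted p 0.109). The IL22RA1 difference for IL-6 was lost at 3 h with no filter and with trimmed-mean sizes (limma adjusted p 0.0663 and 0.0511). At 6 h it was lost with a pseudocount of 0.1, no filter, total-read sizes and voom (adjusted p 0.0522 to 0.0847). That for TNF-α at 6 h was lost with voom (adjusted p 0.0727), and the IFNAR1 difference for IL-10 at 6 h with total-read sizes (0.14, limma adjusted p 0.0696).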

How the results depend on the processing

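Of 270 member values, 266 kept their direction and side of the threshold with a pseudocount of 0.1, 256 with no filter, 264 with trimmed-mean sizes, 262 with total-read sizes, 256 with voom on recovered reads and 264 with the reads of IFNGR2_1 added. Adding the IFNAR2-IL10RB reads could change none of the 270, because that entry held 0 reads in every library. It is therefore no check on how shared reads were counted. Voom and the IFNGR2_1 sum were chosen after seeing the data. None of these alternatives, nor leaving out a library, reversed a called value. Fitting only the 2 groups compared left 196 of 216 unchanged, and cut the calls at 6 h against 3 h in HCT116 to 3 from 7, with 3 libraries a group and fewer samples behind the spread. Leaving out 1 library at a time gave 17 to 21 calls against NC in HCT116 and 23 to 29 in HepG2, 16 to 17 and 26 to 28 against IL-10, 6 to 7 and 9 to 12 for 6 h against 3 h, 5 to 6 between lines and 19 to 22 for the differences of effect. Pairing by replicate number was weak but not excluded, and the main fits left it out. Same-numbered deviations correlated at -0.105 to 0.117 in HCT116 and -0.139 to 0.119 in HepG2. Of 27 libraries in each line, 13 and 15 matched best with their own number. A replicate block gained 7 calls over the 270 values and lost 0. With the replicate block, calls against NC were 20 in HCT116 and 29 in HepG2, against 20 and 26 without it. A planned edgeR fit was not run, because the table holds no deposited counts. At the depth of these libraries IL10RA and IL10RB rested on at most 76 and 32 reads in a library, so small changes of either were not detectable.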
